A study of Mus musculus with 40 samples.

Results

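The DKO day 9-only regions are 2469 stretches of the mouse genome that carried a peak of H3K27 acetylation (H3K27ac) in 3 of 3 DKO libraries and in 0 of 3 WT libraries at day 9 of adipocyte differentiation. They were chosen from 169358 regions, made by joining the overlapping peaks of 24 peak lists, and are 1.46% of them. The mirror choice, 3 of 3 WT and 0 of 3 DKO libraries at day 9, held 653 regions (0.386%). Because the day 9 calls chose the regions, every day 9 value of theirs is a description, and only days 0, 3 and 6 were tested.

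Preadipocytes of the inguinal white fat of C57BL/6 mice were compared between wild type (WT) and mice lacking both HMGN1 and HMGN2 (Hmgn1-/- Hmgn2-/-, DKO). HMGN proteins bind nucleosomes and were lost in every cell of these mice, not in adipocytes alone. Cells were taken before induction (day 0) and at days 3, 6 and 9 of a differentiation towards brown-like cells, begun with insulin, dexamethasone, IBMX, T3 and rosiglitazone, the mixture still in use at day 3, and continued with insulin and T3 alone. Each of the 8 groups had 3 libraries, which the labels do not tie to separate cultures or mice, so that p-values measure the spread between these libraries.

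H3K27ac is laid down by acetyltransferases at active promoters and enhancers, and its peaks are commonly used to map the regulatory elements a cell type uses. During adipocyte differentiation, PPARG and C/EBP factors bind many enhancers near genes of lipid storage, and brown-like cells add enhancers near genes of heat production and mitochondrial oxidation. A narrow peak marks a place where the reads of the precipitated DNA exceed the local background, and its summit is the base with most reads.

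The sequence around the summit is shown for the 4 strongest regions and, chosen after their values were seen, for the strongest region in each of 4 genes of brown or general adipocyte function. Each run covers 151 bases, 75 on either side of the summit, from the RefSeq sequence of GRCm38.p6 (mm10), and capitals mark a match to a motif that was searched.
Depdc1b region (chr13:108293444-108293594, plus strand): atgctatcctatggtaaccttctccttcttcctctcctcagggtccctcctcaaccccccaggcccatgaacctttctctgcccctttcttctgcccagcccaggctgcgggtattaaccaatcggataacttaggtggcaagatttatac
Gm5678 region (chr16:93632134-93632284, plus strand): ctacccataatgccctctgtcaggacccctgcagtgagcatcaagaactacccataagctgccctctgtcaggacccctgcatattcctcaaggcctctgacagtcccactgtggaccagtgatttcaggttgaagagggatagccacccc
Pou4f1 repeat region (chr14:104336910-104337060, plus strand): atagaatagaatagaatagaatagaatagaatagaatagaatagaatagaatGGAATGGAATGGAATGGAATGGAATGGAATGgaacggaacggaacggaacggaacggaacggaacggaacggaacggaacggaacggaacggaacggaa
Ak4 promoter region (chr4:101420246-101420396, plus strand): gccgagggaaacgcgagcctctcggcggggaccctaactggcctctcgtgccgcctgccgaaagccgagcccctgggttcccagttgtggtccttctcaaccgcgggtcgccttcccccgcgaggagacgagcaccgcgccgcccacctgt
Elovl3 promoter region (chr19:46131326-46131476, plus strand): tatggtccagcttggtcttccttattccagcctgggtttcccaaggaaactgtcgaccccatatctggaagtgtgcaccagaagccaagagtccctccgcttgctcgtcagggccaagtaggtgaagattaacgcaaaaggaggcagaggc
Nrg4 intron region (chr9:55246800-55246950, plus strand): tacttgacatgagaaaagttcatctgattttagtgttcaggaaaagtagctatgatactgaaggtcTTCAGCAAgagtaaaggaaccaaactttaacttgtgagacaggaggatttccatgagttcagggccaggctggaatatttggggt
Adipoq intron region (chr16:23151642-23151792, plus strand): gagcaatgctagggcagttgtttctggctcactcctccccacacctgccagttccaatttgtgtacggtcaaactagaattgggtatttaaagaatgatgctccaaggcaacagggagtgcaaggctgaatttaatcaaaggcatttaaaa
Pparg intron region (chr6:115414110-115414260, plus strand): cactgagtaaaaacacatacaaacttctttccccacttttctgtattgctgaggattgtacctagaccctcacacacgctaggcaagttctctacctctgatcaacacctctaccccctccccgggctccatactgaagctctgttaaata
The Pou4f1 run is a simple repeat, 100% of it masked as repetitive in the reference, and its capitals are overlapping copies of the TEAD letters GGAATG. The Nrg4 run holds 1 C/EBP match (TTGCNNAA, here on the opposite strand). The other 6 runs held no match to any of the 13 motifs, which says only that those letters are not in these windows.

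The 24 lists held 47448 to 115923 peaks. At day 9 they held 91488, 111761 and 105173 peaks in WT and 115923, 112348 and 111219 in DKO, so the genotypes overlapped in peaks. In merged regions called they did not, with 49956, 64065 and 60504 in WT and 70916, 66599 and 64439 in DKO. The part of list length in the choice of the regions was not tested. The Hmgn2 gene held a peak in 12 of 12 WT and 0 of 12 DKO libraries, whereas Hmgn1 held peaks in 12 of 12 of both. Of markers of other cells, a start with a peak in 6 of 6 day 9 libraries was found for 7 of 20 leukocyte and 3 of 15 endothelial genes. It was found for 1 of 14 skeletal muscle, 0 of 10 mesothelial and 2 of 12 Schwann and neural genes. Among preadipocyte and stromal genes it was found for 15 of 21, and among general adipocyte genes for 23 of 24. WT day 3 replicate 3 had the lowest background (4.50 reads per kb, while the others had 8.61 to 12.8). DKO day 0 replicate 2 had wide peaks (median 1076 bp, against 313 to 376 bp) and DKO day 6 replicate 3 had the fewest peaks (47448).

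The strongest region (median −log10 q 57.1, against 36.3 for the next) lay between genes, 22.8 kb from the start of Depdc1b, a gene linked to cell division (chr13:108291840-108294161, 2322 bp). It held a peak in all 12 DKO libraries and in none of the 12 WT libraries. Its summit reached 61, 63 and 56 reads at day 9 (60 ± 3.61, SD, n = 3; fold over background 18.2 ± 1.31). Before that it had reached 54, 108 and 62 reads (day 0), 34, 43 and 41 reads (day 3) and 32, 41 and 29 reads (day 6), where 108 comes from the library with wide peaks. Over days 0, 3 and 6, which the choice did not use, its calls in 9 of 9 DKO and 0 of 9 WT libraries gave p = 0.00025 (exact permutation test, two-sided), the smallest the design allows. Adjusted over the 55049 regions tested, p was 0.493 (Benjamini-Hochberg), so it did not pass, as no region alone could at this p. This region was present from day 0 and was not a day 9 gain.

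The second strongest region lay 4.11 kb from the start of Gm5678 (chr16:93632002-93632472) and was called in 8 of 9 earlier DKO libraries and 0 of 9 WT libraries. Its summit held 21 and 18 reads in the day 0 libraries that called it and 21, 19 and 20 reads at day 3. It held 41, 32 and 39 reads by day 6 and 41, 48 and 39 by day 9. The reads at days 6 and 9 overlapped, and both lay above those at days 0 and 3. The fold over background gave another course. It was 8.29, 7.68 and 8.54 at day 3 and 9.58, 7.93 and 8.14 at day 6, which overlapped. At day 9 it was 13.4, 17.5 and 14.7, above both. Of the 169358 regions, 24 of the 799 within 5 Mb of Hmgn1, on the same chromosome, were DKO day 9-only (3.00%), and 21 of the 1454 within 5 Mb of Hmgn2 were (1.44%). Whether nearness to the deleted genes bears on these calls was not tested.

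Few regions combined no WT call with many DKO calls before day 9. Besides the Depdc1b and Gm5678 regions, those near Enpp5, a membrane phosphodiesterase (chr17:44060688-44061436), and Purb, a single-strand DNA binding protein (chr11:6488838-6490379), were called in 8 of 9 earlier DKO libraries and 0 of 9 WT libraries. Their day 9 summits held 23, 21 and 21 reads and 18, 25 and 19 reads. The region 18.8 kb from Psg26 (chr7:18464873-18465701) was called in 3 DKO libraries at day 0, 2 at day 3 and 1 at day 6. The region in an intron of Rasgef1b (chr5:99478984-99480290) was called in 3 of 3 DKO libraries at day 0, with 27, 45 and 21 reads, in no library of either genotype at days 3 and 6, and at day 9 with 32, 29 and 21 reads.

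Other strong regions appeared in DKO cells from day 6. The region 57.6 kb from Lrrc66 (chr5:73572438-73572907) held 13, 18 and 20 reads in the DKO libraries of day 6 and 29, 32 and 24 at day 9, and no peak in any WT library. A region in an intron of Samm50, a subunit of the sorting machinery of the mitochondrial outer membrane (chr15:84194423-84195257), held 17, 18 and 16 reads in DKO cells at day 6 and 27, 18 and 29 at day 9. It was also called in 1 WT library of day 6, with 14 reads. The region in an intron of Hmgb1, which encodes another chromatin protein (chr5:149135612-149135936), had no call before day 9, when its summit held 30, 27 and 22 reads.

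Strong day 9 peaks were not always absent from WT cells. The promoter region of Ak4, a mitochondrial adenylate kinase (chr4:101420173-101421010), held 31, 29 and 17 reads in DKO cells at day 9. It was called in 7 of 9 earlier WT libraries and in 2 of 9 earlier DKO libraries, with 12, 18 and 10 reads in WT cells at day 3 and 20, 15 and 18 at day 6. The Pou4f1 repeat region (chr14:104336839-104337143) held 24, 38 and 31 reads in DKO cells at day 9, and 175 in WT day 3 replicate 3, the library with the lowest background. The region in an intron of Acacb, which encodes the mitochondrial acetyl-CoA carboxylase (chr5:114172979-114173282), likewise held 33, 20 and 31 reads at day 9 and 98 in that WT library. Both were called elsewhere among WT libraries only in day 0 replicate 3, with 20 and 26 reads.

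**Figure D1:**
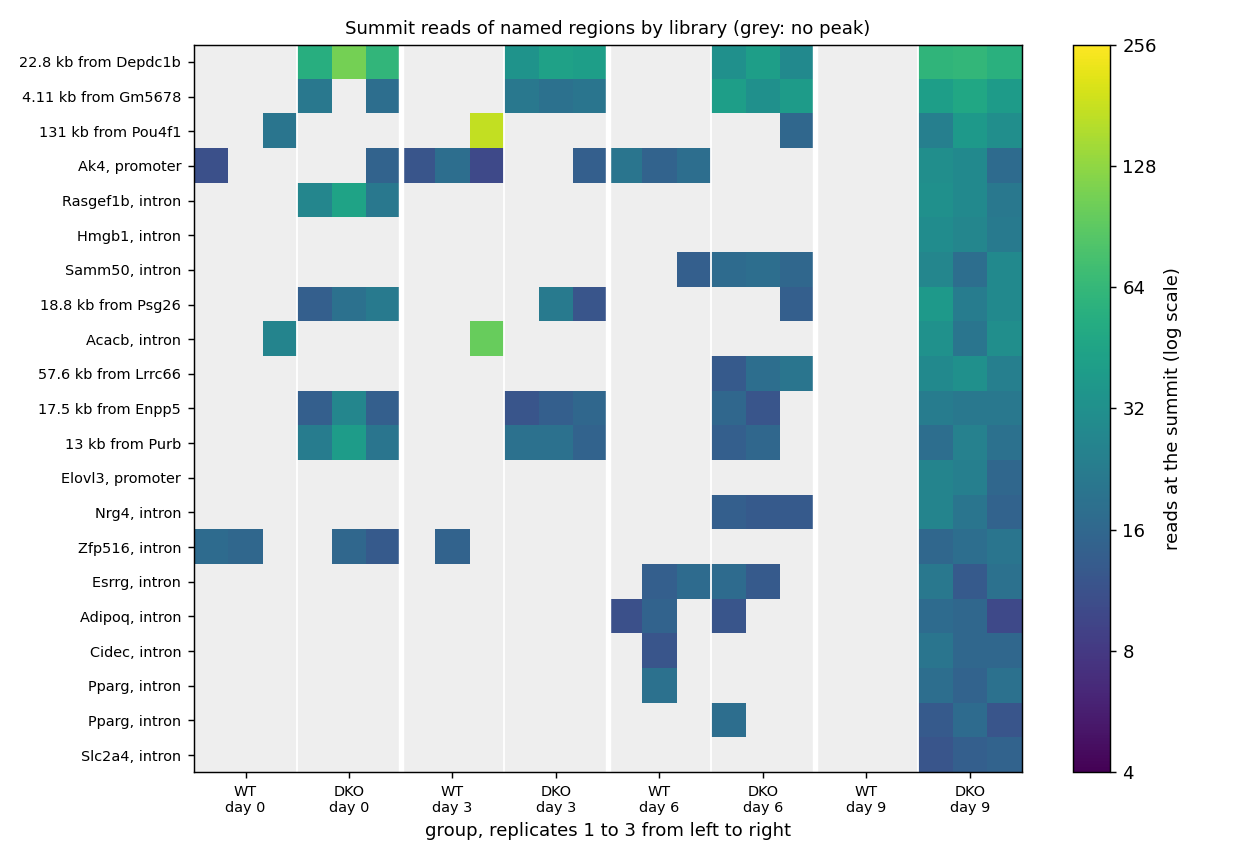
Reads at the summit (colour, log scale) of the strongest regions, of those with most DKO and no WT calls before day 9, and of regions in brown and general adipocyte genes, by library, 3 libraries a group; grey means no peak. The Depdc1b region is coloured in all 12 DKO libraries and grey in all 12 WT libraries, while Elovl3 is coloured only in DKO cells at day 9.

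Most DKO day 9-only regions had been called before day 9, and most of those in WT cells. Of the 2469, 590 (23.9%) had no peak in any of the 18 libraries of days 0, 3 and 6. Another 259 (10.5%) had been called in DKO libraries only, 454 (18.4%) in WT libraries only and 1166 (47.2%) in both. Thus 1620 (65.6%, against 70.6% of all regions) held a peak in at least 1 earlier WT library, so that "DKO only" holds for day 9 and not for the whole course. More WT than DKO calls were found at 1030 regions (41.7%, against 46.9% of all 169358 regions), and more DKO than WT calls at 509 (20.6%, against 17.6%). Among all 169358 regions, 17.7% had no call at days 0, 3 and 6, 11.7% were called in DKO libraries only, 26.1% in WT libraries only and 44.5% in both.

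**Figure D2:**
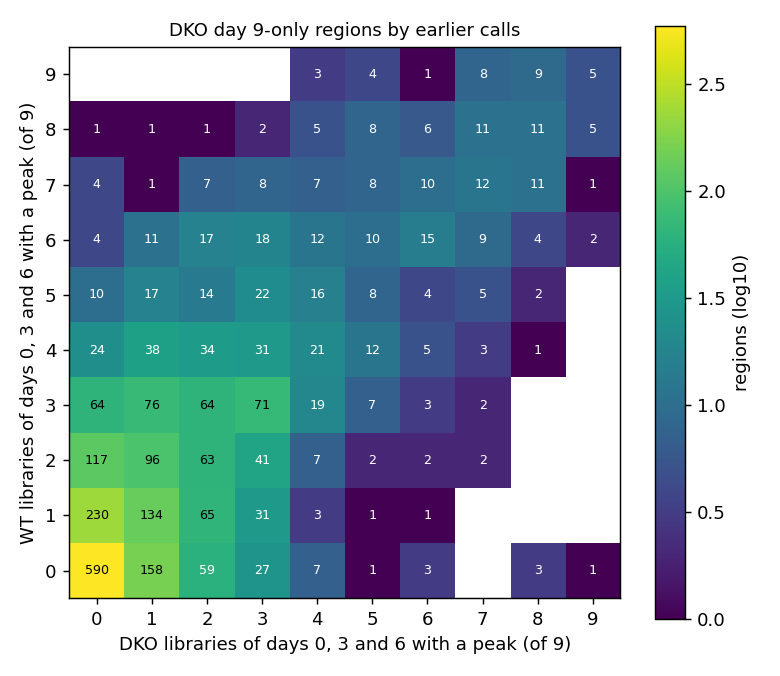
The 2469 regions by the number of WT libraries (vertical axis) and DKO libraries (horizontal axis) of days 0, 3 and 6, of 9 each, that called them; numbers and colour (log scale) give regions. The 590 regions called in neither fill the lower left corner, and the bottom row, with no WT call, thins to 1 region at 9 DKO libraries.

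The share called differed by day. At day 0 the WT libraries called 408, 475 and 431 of the regions (17.7% on average) and the DKO libraries 430, 533 and 528 (20.1%). The genotypes overlapped, with a difference of 2.39 percentage points, against 0.178 over all regions. At day 3 the WT libraries called 473, 501 and 221 and the DKO libraries 235, 381 and 273, again with overlap, and the difference was -4.13 points, against -6.01 over all regions. The lowest WT count is that of replicate 3, which had the lowest background.

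At day 6 the regions were called more often in WT than in DKO cells, as were all 169358 regions. In neither set did the libraries of the genotypes overlap. The order at day 9 was fixed by the choice of the regions. Of the 2469, the WT libraries of day 6 called 822, 743 and 908 (33.4%) and the DKO libraries 633, 557 and 186 (18.6%). The difference was -14.8 points, close to that over all 169358 regions (-15.2), and -9.33 points without DKO day 6 replicate 3. The direction turned when each list was held to its 47448 strongest peaks. Of the same 2469 regions, the WT libraries of day 6 then called 86 to 131 and the DKO libraries 186 to 256, a mean difference of 4.47 points, against -2.38 over all regions. At day 3 it was 0.972 points, against -1.35 over all regions. Only 45 of the 2469 kept a peak in 3 of 3 DKO libraries of day 9 at that length.

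**Figure D3:**
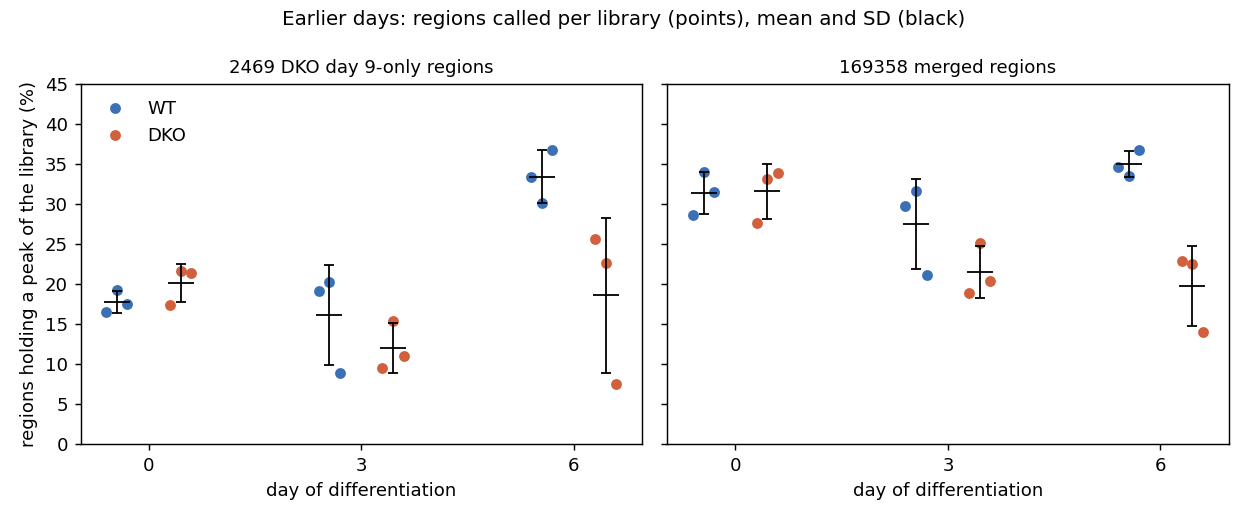
Percentage of the 2469 DKO day 9-only regions (left) and of all 169358 regions (right) that held a peak of each library, by day of differentiation; points are libraries, black bars the mean ± SD of 3. At day 6 the WT points lie above the DKO points in both panels.

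Complete separation of the genotypes before day 9 was uncommon. A peak in 3 of 3 DKO and 0 of 3 WT libraries was found for 30 regions at day 0 (1.22%, against 0.745% of all regions), for 11 at day 3 (0.446%, against 0.098%) and for 19 at day 6 (0.770%, against 0.039%). The reverse pattern, 3 of 3 WT and 0 of 3 DKO libraries, was found at 5 regions at day 0 (0.203%, against 0.594%), 28 at day 3 (1.13%, against 0.9%) and 143 at day 6 (5.79%, against 4.55%). At day 6 more DKO than WT libraries called 349 regions (14.1%, against 4.33% of all), and more WT than DKO libraries called 971 (39.3%, against 32.7%). Thus both orders were found at day 6 in a larger share of these regions than of all regions.

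The regions with most earlier WT calls were in most cases called in DKO cells too. A wide region 164 kb from Jun, an AP-1 subunit (chr4:95211667-95217011), held a peak in 18 of 18 of these libraries, with 11 to 36 reads in WT cells. The 2 regions in introns of Nfatc2, a calcineurin-dependent transcription factor, had peaks in 9 of 9 WT libraries, while 7 and 9 of the DKO libraries held them. The region in an intron of Pkig, an inhibitor of protein kinase A, had 9 WT and 8 DKO calls. The region in an intron of Atp10a, a phospholipid flippase (chr7:58732551-58733794), was called in 9 of 9 WT libraries, with 21, 17 and 27 reads at day 6, and in 4 of 9 DKO libraries, none of them at day 6. It was called with 17, 20 and 25 reads in DKO cells at day 9, when no WT library called it.

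The number of calls at days 0, 3 and 6 was tested region by region, with genotype permuted within each day. Of the 2469 regions, 1142 had 3 to 15 calls and were tested, 1288 had fewer and 39 more. No region passed at an adjusted p under 0.05 in either direction, among these or all 55049 tested (exact permutation test, Benjamini-Hochberg, smallest adjusted p = 0.493). The smallest p this test allows is 0.00025, so a pass over 55049 regions would have needed many regions at that p. The absence of passes therefore says little about a region on its own. At an unadjusted p under 0.05, 10 of the 1142 were higher in DKO cells (0.876%, against 0.147% of all tested) and 36 in WT cells (3.15%, against 5.55%).

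The peaks were low. The median summit held 16, 15 and 14 reads in DKO replicates 1, 2 and 3, against 34, 29 and 28 in the 35397 regions called in 6 of 6 day 9 libraries, and 21, 19 and 18 in all regions called in the same libraries. The fewest reads of any listed peak were 8 or 9. The mirror set was as low in WT cells, with 13, 15 and 15 reads. The median −log10 q was 6.66, 6.14 and 6.05, against 21.7, 18.5 and 17.6. Of the 2469, 1429 (57.9%) had a −log10 q under 5 in their weakest library, and 50 (2.03%) reached 10 in all 3. Between the 3 libraries the summit reads of a region had a median coefficient of variation of 15.5%. Regions called in no earlier library and those called in both genotypes differed little in height, with medians of 14.7 and 15.7 reads.

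The edge of the rule ran through regions of like height. The 3356 regions called in 3 DKO and 1 WT library at day 9 held a median of 16 reads in DKO and 15 in WT cells, and the 5815 called in 2 DKO and 0 WT libraries held 14, against 15 in the DKO day 9-only regions. A WT library without a peak is therefore one below the calling threshold, and how many reads it held there is not given in the lists.

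**Figure D4:**
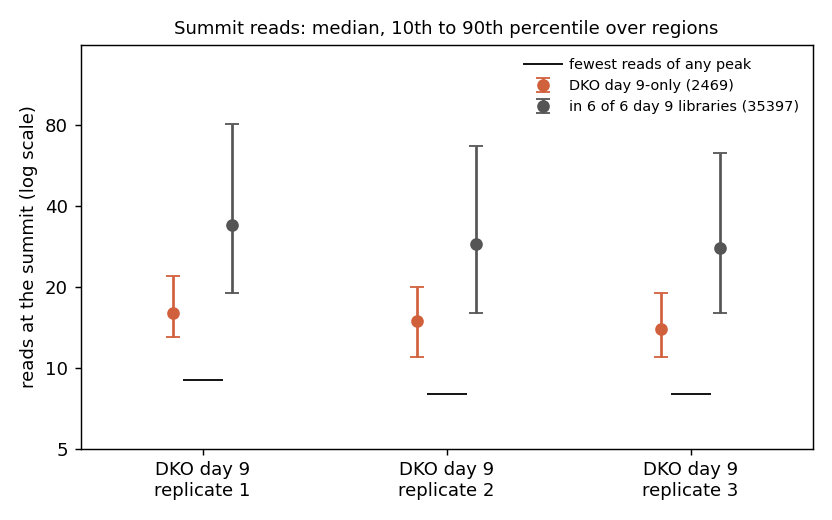
Reads at the summit (log scale) in each DKO library of day 9, as the median (point) and 10th to 90th percentile (bar) over regions, with the fewest reads of any listed peak as a black line. The DKO day 9-only medians of 16, 15 and 14 reads lie under the 34, 29 and 28 of regions called in 6 of 6 day 9 libraries.

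By place, fewer of the regions than of all regions lay at promoters. A summit within 1 kb of a transcript start was found for 154 (6.24%), against 10.3% of all regions and 32.2% of those in 6 of 6 day 9 libraries. Introns held 1306 (52.9%, against 48.6%), the space between genes 915 (37.1%, against 37.5%) and exons 94 (3.81%, against 3.59%). The median distance to a start was 17.5 kb, against 21.2 kb over all regions and 32.5 kb in the mirror set, and 604 (24.5%, against 30.1% of all) lay over 50 kb from one. The strongest at promoters were those of Ak4, Elovl3 and Agap1, a GTPase-activating protein of membrane traffic, whose region held 28, 18 and 23 reads at day 9 and had 8 WT and 5 DKO calls before. The median width was 570 bp, against 428 bp over all regions and 1925 bp in those of 6 of 6 day 9 libraries. Of the 2469, 111 were 2 kb or wider, a smaller share than the 19922 of all 169358.

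Many of the regions bordered acetylated chromatin of WT cells, in a share near that of all regions. A region called in at least 1 WT library at day 9 lay within 1 kb of 1329 (53.8%, against 48.5% of all regions). The median distance was 0.722 kb, against 1.12 kb over all regions. Another DKO day 9-only region lay within 50 kb of 784 (31.8%, against 22% of all regions). By chromosome, they made up between 1.00% (X) and 1.75% (19) of the merged regions, apart from Y, where 0 of 12 were.

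In most features the sequence under the summits was near that of all regions. The median GC content was 49.0%, against 48.3% of all regions, and 8.02% of the windows held 5 or more CpG, against 11.4%. The AP-1 letters TGANTCA were found in 4.33% of the 151-base windows on either strand, against 4.19% of all regions, and the C/EBP letters TTGCNNAA in 5.71%, against 5.41%. The TEAD letters GGAATG were found in 9.15%, against 8.74%, and those of the glucocorticoid receptor, ACANNNTGT, in 4.5%, against 4.81%. The PPAR-RXR element was found in 0.284%, against 0.329%. The element of estrogen-related receptors, TCAAGGTCA, was found in 0.527%, against 0.433%. Further from all regions were some rare motifs, whose shares rest on few windows and were not tested. The shorter NFI form was found in 16 windows (0.648%, against 0.384%) and EBF in 7 (0.284%, against 0.464%). C/EBP-ATF was found in 6 (0.243%, against 0.315%), ETS in 5 (0.203%, against 0.153%) and CTCF in 0 (against 0.059%).

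By gene, 1433 of 21924 protein coding genes (6.54%) held a DKO day 9-only region between 5 kb upstream and their end. These genes were long, with a median of 60.5 kb, against 17.4 kb over all. With 5 regions each, Plxna2, a semaphorin receptor, Arhgap24, a GTPase-activating protein, Auts2, a chromatin regulator of neural development, and Lpp, a protein of focal adhesions, held most after Gm20388 with 6, a gene model of 4435 kb that spans many others. Their regions had mixed histories. For example, 1 region of Plxna2 was called in 3 of 3 DKO and 0 of 3 WT libraries at day 0, while 2 had no call before day 9.

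A larger share of adipocyte genes than of all genes held these regions. Of 24 general adipocyte genes, 11 (45.8%) held one, as did 11 of 35 brown and thermogenic genes (31.4%), 6 of 20 genes of fatty acid and triglyceride synthesis (30.0%) and 6 of 24 of insulin signalling (25%). The share was 10.7% among the 13437 genes with any region in 3 of 3 DKO libraries at day 9. Counted by region, which allows for gene length, 14 of the 264 merged regions of the general adipocyte genes (5.30%) and 12 of 291 of the brown genes (4.12%) were DKO day 9-only, against 1.47% over all genes. The insulin list was at 7 of 564 (1.24%). The mirror set, WT day 9-only, had a region in 0 of the 24 general adipocyte genes and in 1 of the 35 brown genes, which is near the 1.37% of all genes. It had one in 2 of 19 white adipocyte genes (10.5%). By region it held 6 of their 223 merged regions (2.69%), against 0.286% over all genes. Of the same 223, 5 (2.24%) were DKO day 9-only, against 1.47% over all genes.

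The brown and thermogenic genes with a region were Elovl3, Nrg4, Zfp516, Esrrg, Prdm16, Cidea, Ide, Ebf2, Fgf21, Ppargc1b and Cpt1b. Ucp1, also on the list, had none. The starts of Ucp1 and Ide held a peak in 0 of 3 WT and 0 of 3 DKO libraries at day 9. Elovl3, a fatty acid elongase of brown fat, had one at its promoter (chr19:46130687-46131516), with 26, 24 and 16 reads in DKO cells at day 9 and no peak in this region in any other library. The start of Elovl3 itself also held a peak in 2 of 3 WT libraries at day 9, and a region called in WT cells lay 0.413 kb away. In an intron of Nrg4, a growth factor secreted by brown fat (chr9:55246659-55247100), the region held 14, 13 and 13 reads in DKO cells at day 6 and 26, 20 and 15 at day 9, and no peak in WT cells at any day. Esrrg, a nuclear receptor of oxidative metabolism, had an intron region called in 2 WT and 2 DKO libraries at day 6, and Zfp516, a factor that activates Ucp1, had one called in 2 WT and 2 DKO libraries at day 0 and in 1 WT library at day 3. The regions near the starts of Cidea, a lipid droplet protein, and Fgf21, a metabolic hormone, and in an intron of Prdm16, a regulator of brown fat identity, had no call before day 9. At day 9 the starts themselves held a peak in 0, 1 and 3 of 3 WT libraries.

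Among general adipocyte genes, the intron region of Adipoq, which encodes adiponectin (chr16:23151483-23152222), held 17, 16 and 10 reads in DKO cells at day 9, and had been called in 2 WT libraries and 1 DKO library at day 6. Pparg, the master regulator of adipogenesis, had 2 regions in introns. One (chr6:115414044-115414487) held 18, 15 and 19 reads at day 9 and 19 in 1 WT library of day 6, and the other held 13, 17 and 12 reads at day 9 and 18 in 1 DKO library of day 6. Slc2a4, the insulin-responsive glucose transporter, had an intron region of 12, 14 and 15 reads that no other library called. Cidec, a lipid droplet protein, had one called in 1 WT library of day 6. The brown and general adipocyte lists held 26 regions, including those of Cd36, Lpin1, Fabp5, Acvr1c, Dgat1, Gpd1 and Plin4. The Plin4 region lay in an intron of Plin5 and the Gpd1 region in an exon of Smarcd1. Both counted only through the 5 kb upstream of the listed gene. Of the 26, 14 had no call before day 9, and 7 had a WT and 6 a DKO call at day 6. A region called in WT cells at day 9 lay within 1 kb of 15.

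Counted by region, other lists were nearer to the 1.47% of all genes. Fatty acid synthesis was at 7 of 320 merged regions (2.19%) and fatty acid oxidation at 4 of 144 (2.78%). By gene, those of fatty acid synthesis with a region were Acacb, Fasn, Scd1, Elovl5, Me1 and Fads2, 6 of 20 (30.0%). Those of fatty acid oxidation were Acadvl, Hadha and Ehhadh, 3 of 23 (13.0%). Of nuclear receptors and glucocorticoid targets, 3 of 22 (13.6%, against 6.54% of all genes) held one, which by region was 7 of 546 (1.28%). Among them Zbtb16, a zinc finger factor induced by glucocorticoids, held 4 regions in its introns with 12 to 20 reads, none called before day 9. White adipocyte genes held one in 3 of 19 (15.8%: Trim14, Zfp423 and Rb1), WNT, TGF-beta and BMP genes in 4 of 28 (14.3%) and matrix and contractile genes in 2 of 22 (9.09%). By region the WNT, TGF-beta and BMP list was at 6 of 406 (1.48%) and the matrix and contractile list at 4 of 389 (1.03%).

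No region was found in any of 21 preadipocyte and stromal genes, 14 AP-1 and ATF genes, 15 endothelial, 14 skeletal muscle or 10 mesothelial genes. Over all genes the share was 6.54%, and these lists held few merged regions: 189, 41, 61, 26 and 28 in the same order, of which 1.47% over all genes were DKO day 9-only. Zeros in the 4 shorter lists are therefore near that share. Within 50 kb, 5 of the 21 preadipocyte genes had a region (23.8%, against 18.2% of all genes). Leukocyte genes held one in 2 of 20 (10%), Spi1 and Cx3cr1, and Schwann and neural genes in 1 of 12, Mbp.

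**Figure D5:**
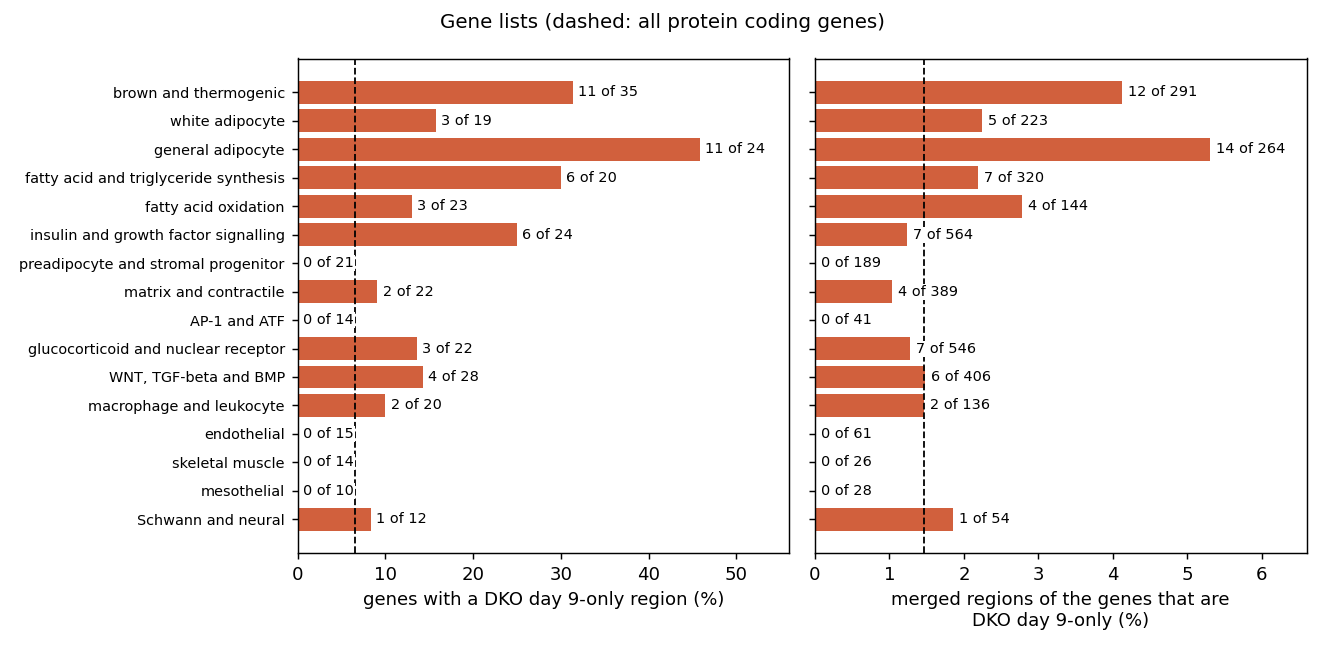
Left, percentage of the genes of each list that held a DKO day 9-only region between 5 kb upstream and their end; right, percentage of all merged regions of those genes that were DKO day 9-only; dashed lines give all protein coding genes, 6.54% and 1.47%. The general adipocyte and brown lists have the longest bars in the right panel, at 5.30% and 4.12%.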

How the data were processed

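H3K27ac ChIP-seq was read from 24 deposited peak lists, 3 per genotype and day. Per the labels, the authors used bcl2fastq 2.17, cutadapt 1.18, BWA 07.17 and MACS2 2.1.1.20160309 on mm10, and called narrow peaks per library. The 16 input libraries were not analysed here. Each deposited list gives a fold over local background, a ratio that the authors' caller computed, and the −log10 of p and of q. Mapped read totals are not in the lists, so depth is unknown. Reads at a summit were recovered from the fold and p, and were whole within 0.01 for 100% of peaks.

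Peaks overlapping by 1 bp were joined (pandas 2.3.3, numpy 2.4.6, with the same result as bedtools 2.31.1 on part of the lists). A region was called in a library with a peak in it. Calls at days 0, 3 and 6 were tested with an exact permutation test, two-sided, over 8000 relabellings within day, for regions with 3 to 15 calls of 18, and adjusted with the Benjamini-Hochberg method (scipy 1.17.1). Places came from protein coding genes of GENCODE M21, and sequences from the RefSeq genome GRCm38.p6. The 13 motifs, searched on both strands, were AP-1 (TGANTCA), C/EBP (TTGCNNAA), C/EBP-ATF (TGATGCAA), estrogen-related receptor (TCAAGGTCA), glucocorticoid receptor (ACANNNTGT), TEAD (GGAATG), CTCF (AGGGGGCGC), ETS (CCGGAAGT), and PPAR-RXR, EBF, NRF1 and 2 forms of NFI by name. C/EBP and C/EBP-ATF can overlap. A promoter region had its summit within 1 kb of a start.

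The regions named were the 10 with the highest median −log10 q, up to 5 with most DKO calls and 0 of 9 WT calls before day 9, up to 5 with most WT calls, up to 4 genes per list, the 5 genes with most regions, the 3 strongest promoter regions, Hmgn1 and Hmgn2. The regions and the 16 gene lists were chosen with earlier results of these data known. Alternatives were stricter q, equal list lengths, other joining rules, libraries left out and a block by replicate number. Leaving out DKO day 6 replicate 3, and shortening the lists with the regions kept, were chosen after seeing the data.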

Additional observations from a re-analysis of the deposited data

How the results depend on the processing

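The regions rest on a calling threshold, and depth, which limits what falls under it, is not given. The rule gave 331 regions with 20000 peaks per library, which overlapped 2 of the 2469. It gave 804 with the same number of peaks (47448) in each, which overlapped 44 of the 2469. At these 2 settings the differences between DKO and WT were 5.14 and 6.18 points (day 0), 1.51 and 0.290 points (day 3) and 20.04 and 8.29 points (day 6), with 9.67% and 13.6% of regions without an earlier call. Regions at an unadjusted p under 0.05 numbered 208 and 562 higher in WT, and 189 higher in DKO at the second setting. With the 2469 regions kept, 47448 peaks per library gave 4.28, 0.972 and 4.47 points at these days, against 3.34, -1.35 and -2.38 over all regions. With 20000 peaks they were 2.15, 0.419 and 0.364, against 1.22, -0.451 and -0.648. Of the 2469, 45 and 2 were still called in 3 of 3 DKO libraries of day 9. A −log10 q of at least 5 gave 2128 regions, which overlapped 1026 of the 2469, and a join by 100 bp 2560, which overlapped 2264. Setting each peak to 250 bp either side of its summit gave 21.3% without an earlier call.

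With libraries left out, the number of regions ranged from 2468 to 8523, the latter without replicate 2 of every group. It rose to 4099 and 3721 without WT day 9 replicates 2 and 3 and to 3981, 4721 and 4881 without DKO day 9 replicates 1, 2 and 3, where the rule asks for fewer libraries. The differences ranged from 0.734 to 2.40 points at day 0, -8.77 to -1.75 at day 3 and -22.1 to -9.33 at day 6, and the share without an earlier call from 22.2% to 34.1%. Regions at an unadjusted p under 0.05 ranged from 351 to 5471 higher in WT and from 12 to 166 higher in DKO. They numbered 5471 in WT without WT day 3 replicate 3, and 166 and 141 in DKO without DKO day 0 replicate 2 and DKO day 6 replicate 3. The adjusted count was 0 in each, where the smallest p allowed was no lower than with all libraries, so this says little.

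Same-numbered libraries of WT and DKO did not deviate together (12 pairs, correlation -0.041 to 0.0682). With a block by replicate number, 1164 regions were higher in WT and 21 in DKO at an unadjusted p under 0.05, 12 and 7 of them DKO day 9-only. At an adjusted p there were 0, which could hardly differ, as the smallest p of the block test is larger still. Within 2.5 kb of a start lay 11.7% of the regions. With 50 kb either side, 18 of 35 brown (51.4%), 16 of 24 general adipocyte (66.7%) and 4001 of all genes (18.2%) had a region nearby. The white adipocyte, fatty acid oxidation, fatty acid synthesis and insulin lists were then at 42.1%, 43.5%, 45% and 41.7%, so that brown genes stood less apart from them. The DKO minus WT difference changed sign at days 3 and 6 with 20000 or 47448 peaks per library and kept its sign at the other settings. The causes were not tested.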
